A study of Mus musculus with 10 samples.

Results

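Transcripts of 10 genes of detoxification were followed in mouse lung after irradiation of the thorax. They were the epoxide hydrolases Ephx1 and Ephx2, the carboxylesterases Ces2e and Ces1d, the cytochromes P450 Cyp1b1 and Cyp2b10, the glutathione S-transferases Gsta3 and Gstm1, the aldehyde dehydrogenase Aldh1a1 and the flavin monooxygenase Fmo1. The genes were found by symbol among the 45786 genes of the deposited tables. They had been chosen with the differences between irradiated and control lung in these same data in view, so those differences are given as a description, without a test. RNA came from whole-lung cell suspensions of C57BL/6J mice, an inbred laboratory strain. Irradiated mice had received 12.5 Gy of γ-radiation to the whole thorax, and controls of matched age 0 Gy. Both were sampled at 24 hours and at 1, 4, 12 and 32 weeks. Each time and treatment is represented by 1 pool of RNA from 3 mice, so a fold change at 1 time compares 1 pool with 1 pool and has no replicate check.

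Detoxification of lipophilic compounds runs in steps. Cytochromes P450 and flavin monooxygenases oxidise the compound, carboxylesterases and epoxide hydrolases split esters and reactive epoxides with water, aldehyde dehydrogenases oxidise aldehydes to acids, and transferases attach glutathione or other groups for export. In the airways these enzymes are concentrated in the secretory club cells, and several of them also act on the body's own lipids, steroids and retinoids.

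Libraries held 8679551 to 17473108 fragments before the authors' scaling, the shallowest being the 12-week control and the deepest the 4-week irradiated pool. As a check of the treatment labels, Cdkn1a, the cell cycle inhibitor induced by p53, was 6.88-, 3.77-, 3.15-, 2.27- and 1.21-fold higher in the irradiated pool than in the control at 24 hours, 1, 4, 12 and 32 weeks. Ccng1, Phlda3 and Mdm2, also p53 targets, were higher in the irradiated pool at each of the 5 times, though Mdm2 at 12 weeks by only 1.02-fold. Markers of airway, alveolar, endothelial, mesenchymal and blood cells were detected in all pools. The 8 hepatocyte markers summed to 0.593 to 2.72 CPM (counts scaled to the library total and by TMM) in controls and 1.01 to 2.59 CPM in irradiated pools, none passed the filter on low counts, and Apoc3 was at 0 in all 10 pools.

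All 10 genes passed the filter on low counts, and each had at least 25 fragments in every control pool. The irradiated pools lay apart from the controls for 3 of the 10. Ephx1, Ephx2 and Ces2e were higher in every irradiated pool than in any control, an ordering met by 1.17% of the 15625 genes tested. They were also the only ones of the 10 higher in 5 of 5 matched pairs (6.75%), and 0 were lower in 5 of 5 (5.73%). For Ephx2 and Ces2e the lowest irradiated pool lay only just above the highest control, at 4.37 against 4.13 CPM and 5.79 against 5.34 CPM. The other 7 overlapped between treatments, and for 0 was every irradiated pool below every control (1.46%). In bulk lung RNA, fewer cells of a type and less RNA per cell cannot be told apart, and the same holds for more of either.

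**Figure D1:**
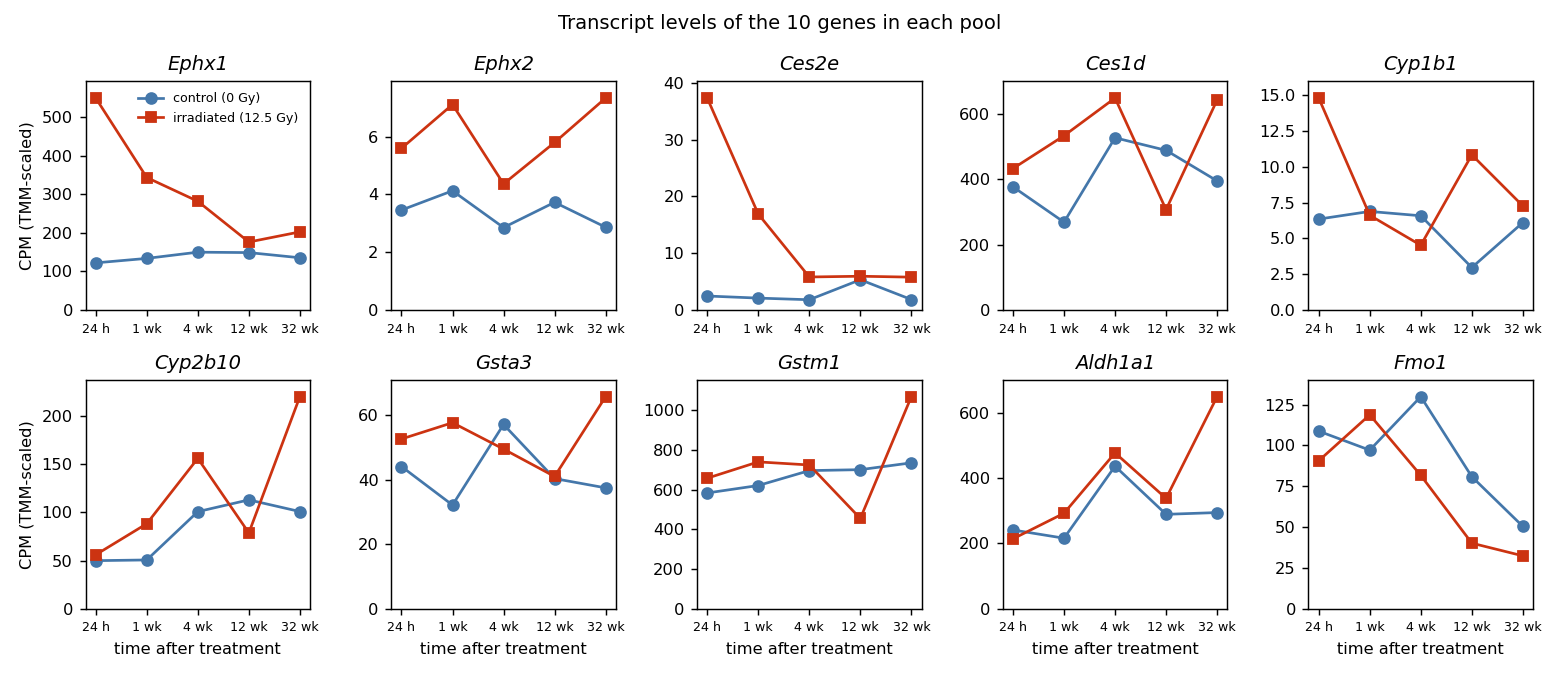
Transcript level in CPM, scaled by TMM, of each of the 10 genes in the 5 control pools (blue circles) and the 5 irradiated pools (red squares) by time after treatment. Each point is 1 pool of 3 mice, lines only join the pools of a treatment, and each panel has its own axis starting at 0. Red and blue points do not overlap for Ephx1, Ephx2 and Ces2e, though for Ephx2 and Ces2e by a small margin. Fmo1 is lower in the irradiated pool at 4 of 5 times.

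Ephx1 encodes microsomal epoxide hydrolase, which turns epoxides left by cytochromes P450 into diols. The gene lies on the minus strand at chr1:180976210-181020904 (GRCm38, GENCODE M21). It was at 122, 134, 150, 149 and 135 CPM in the controls of 24 hours, 1, 4, 12 and 32 weeks, and at 549, 343, 282, 176 and 202 CPM in the irradiated pools. The highest irradiated pool was that of 24 hours and the lowest that of 12 weeks, which still lay above the highest control. The controls spanned a narrow range, with a mean of 138 ± 11.5 CPM (SD, n = 5 pools). Against the matched control the level was 4.49-fold at 24 hours, 2.56-fold at 1 week, 1.88-fold at 4 weeks, 1.18-fold at 12 weeks and 1.49-fold at 32 weeks. The 12-week difference is the smallest of the 5, and the 32-week pool lay above the 12-week pool. The exons of Ephx1 share 72 bases with Gm36961 on the same strand, whose fragments could not be separated from its own there.

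Ces2e encodes an esterase of the carboxylesterase 2 family, enzymes that hydrolyse ester and amide bonds of drugs and lipids. It lies on the plus strand at chr8:104926260-104934672. Controls were at 2.47, 2.10, 1.82, 5.34 and 1.85 CPM in time order, and irradiated pools at 37.3, 16.9, 5.82, 5.95 and 5.79 CPM. The irradiated level was thus far apart from the others at 24 hours and 1 week and nearly equal at the later 3 times. The matched differences were 14.2-fold at 24 hours, 7.53-fold at 1 week, 3.02-fold at 4 weeks, 1.11-fold at 12 weeks and 2.96-fold at 32 weeks. The low 12-week value goes with a high control: the 12-week control was the highest of the 5 controls and came from the shallowest library. It rested on 45 fragments, with an exact Poisson 95% interval of 32.8 to 60.2 that covers counting error only. The lowest irradiated pool, that of 32 weeks, rested on 79 fragments (62.5 to 98.5) in a deeper library. The gap between these pools, 5.34 against 5.79 CPM, is small beside such intervals. At 24 hours the control had 37 fragments (26.1 to 51.0) and the irradiated pool 505 (462 to 551). Ces2c, the most similar transcript, was 83.9% identical over 1734 aligned bases and lay between 1.84 and 20.3 CPM. Part of the fragments of either could therefore have been counted for the other. Ces2c was at 4.78 CPM in the control and 6.80 CPM in the irradiated pool at 24 hours, and its highest value was in the 32-week irradiated pool.

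The windows around the start sites of Ephx1 and Ces2e are shown because these genes had the largest differences at 24 hours. Each runs from 250 bases before the start to 50 after it, 5′ to 3′ on the gene's strand, from RefSeq on build GRCm38.p6. Capitals mark matches on either strand to 5 motifs searched, namely the GC box GGGCGG, the TATA box TATAAA, the aryl hydrocarbon receptor core GCGTG, the antioxidant response element TGACNNNGC and the 10-base unit of the p53 response element. These matches are letters in a window and not known sites. In Ephx1, at chr1:181017520-181017819 on the minus strand, 2 GC boxes and 1 TATAAA were found. This window lies inside the gene as annotated in GENCODE M21, which begins at 181020904 on that strand, and the outer start was not searched. In Ces2e, at chr8:104926010-104926309 on the plus strand, 1 GC box was found, written CCGCCC on this strand.
Ephx1: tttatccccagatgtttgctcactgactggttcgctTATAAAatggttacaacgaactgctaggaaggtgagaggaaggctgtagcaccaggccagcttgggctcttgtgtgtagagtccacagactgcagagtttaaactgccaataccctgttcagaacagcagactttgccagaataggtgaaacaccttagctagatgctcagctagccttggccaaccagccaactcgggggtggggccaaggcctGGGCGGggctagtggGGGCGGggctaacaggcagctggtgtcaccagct
Ces2e: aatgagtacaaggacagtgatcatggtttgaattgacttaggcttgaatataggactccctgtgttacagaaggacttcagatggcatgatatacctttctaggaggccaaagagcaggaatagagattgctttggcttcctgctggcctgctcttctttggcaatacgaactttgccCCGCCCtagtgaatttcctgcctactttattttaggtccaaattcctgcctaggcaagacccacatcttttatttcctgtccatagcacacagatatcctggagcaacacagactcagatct
Of 32851 windows of this length, 35.7% hold a GC box, 13.6% TATAAA, 32.4% GCGTG, 12.4% TGACNNNGC and 8.36% the p53 unit. The 2 windows shown hold none of the last 3. The start window of Gsta3, not shown, held 1 match to TGACNNNGC and 1 to the p53 unit, the only such matches in the windows of the 10 genes.

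Ephx2 encodes soluble epoxide hydrolase, which acts on epoxides of fatty acids such as those made from arachidonic acid. It lies on the minus strand at chr14:66084374-66124500. Its level was low, at 3.46, 4.13, 2.86, 3.73 and 2.87 CPM in the controls and 5.60, 7.11, 4.37, 5.80 and 7.34 CPM in the irradiated pools in time order. The lowest irradiated pool, that of 4 weeks, lay just above the highest control, that of 1 week. The matched difference was 1.59-, 1.70-, 1.50- and 1.53-fold from 24 hours to 12 weeks and 2.48-fold at 32 weeks. Unlike Ephx1 and Ces2e, its largest difference was the latest. Each pool held between 32 and 99 fragments of the gene. For the lowest irradiated pool the interval of 80 fragments was 63.4 to 99.6, and for the highest control that of 65 fragments was 50.2 to 82.8, so the intervals of these neighbours overlapped.

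Ces1d, a carboxylesterase that also hydrolyses triacylglycerol, lies on the minus strand at chr8:93166068-93197838. Controls were at 377, 269, 527, 489 and 395 CPM, and irradiated pools at 433, 534, 649, 307 and 643 CPM. The treatments overlapped, since the 12-week irradiated pool was below 4 of the 5 controls. The matched difference was 1.15-fold at 24 hours, 1.98-fold at 1 week, 1.23-fold at 4 weeks and 1.63-fold at 32 weeks, while at 12 weeks the irradiated pool was 1.59-fold lower. The nearest transcript, Ces1g, was 83.0% identical over 1664 bases and reached at most 5.10 CPM.

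**Figure D2:**
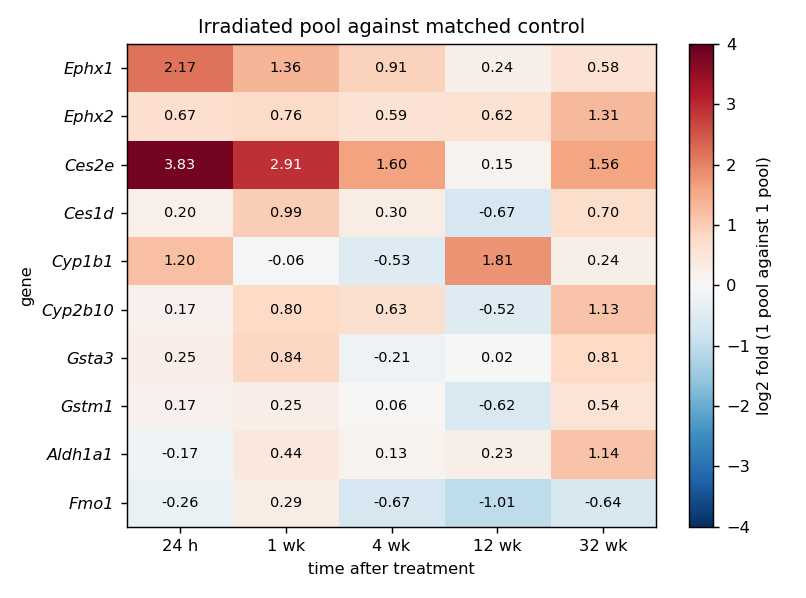
Log2 of the level in the irradiated pool over that in the control of the same time, with a prior count of 2, for the 10 genes (rows) at 5 times (columns), with red for higher and blue for lower in the irradiated pool. Each value compares 1 pool with 1 pool. Ces2e at 24 hours has the highest value, 3.83, and Fmo1 at 12 weeks the lowest, -1.01.

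Cyp1b1 encodes a cytochrome P450 that oxidises polycyclic aromatic hydrocarbons and oestrogens. It lies on the minus strand at chr17:79701537-79715061. Controls were at 6.34, 6.88, 6.58, 2.97 and 6.10 CPM, and irradiated pools at 14.8, 6.61, 4.52, 10.8 and 7.26 CPM. The irradiated pools of 24 hours, 12 weeks and 32 weeks were above all 5 controls and those of 1 and 4 weeks were not. The matched difference was 2.30-fold at 24 hours, 3.51-fold at 12 weeks and 1.18-fold at 32 weeks, with the irradiated pool 1.04-fold lower at 1 week and 1.44-fold lower at 4 weeks. The 12-week value is set against the lowest control, which rested on 25 fragments with an interval of 16.2 to 36.9. Against the mean of all 5 controls, 5.77 ± 1.60 CPM (SD, n = 5), the 12-week irradiated pool remained higher.

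Cyp2b10 encodes a cytochrome P450 that in liver is a classical target of the constitutive androstane receptor. It lies on the plus strand at chr7:25897620-25926624. Controls were at 49.9, 50.6, 101, 113 and 101 CPM, so the controls of 24 hours and 1 week were the low ones. Irradiated pools were at 56.0, 88.2, 156, 78.7 and 220 CPM, and only those of 4 and 32 weeks were above all controls. The matched difference was 1.12-fold at 24 hours, 1.74-fold at 1 week, 1.55-fold at 4 weeks and 2.18-fold at 32 weeks, and the 12-week pool was 1.44-fold lower. Its nearest transcript, Cyp2b9, was 86.6% identical over 1882 bases and at no more than 0.154 CPM in any pool.

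The start windows of both cytochromes P450 are shown because they hold the aryl hydrocarbon receptor core, as the 2 windows of Gstm1 do, a sequence bound by the receptor for polycyclic aromatic hydrocarbons. Cyp1b1, at chr17:79715012-79715311 on the minus strand, held 1 such core and 1 GC box, written CACGC and CCGCCC on this strand. Cyp2b10, at chr7:25897408-25897707 on the plus strand, held 2 cores, written CACGC and GCGTG. Capitals, source and build are as for the windows above.
Cyp1b1: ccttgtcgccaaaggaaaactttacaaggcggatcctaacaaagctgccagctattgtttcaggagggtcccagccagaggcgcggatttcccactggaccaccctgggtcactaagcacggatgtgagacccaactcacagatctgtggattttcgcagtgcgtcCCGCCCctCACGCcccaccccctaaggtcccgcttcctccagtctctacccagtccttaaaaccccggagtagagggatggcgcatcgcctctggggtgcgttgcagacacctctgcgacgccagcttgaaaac
Cyp2b10: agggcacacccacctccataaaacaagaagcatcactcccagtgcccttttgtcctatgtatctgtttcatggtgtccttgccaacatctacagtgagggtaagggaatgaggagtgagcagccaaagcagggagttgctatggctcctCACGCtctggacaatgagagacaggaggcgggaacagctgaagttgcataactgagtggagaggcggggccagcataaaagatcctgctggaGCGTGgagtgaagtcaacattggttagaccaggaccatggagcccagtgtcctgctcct
Over the 10 pools, which share times and treatment, the levels of these 2 genes had a Pearson correlation of -0.41.

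Fmo1 encodes a flavin monooxygenase that adds oxygen to nitrogen and sulphur atoms of drugs. It lies on the minus strand at chr1:162829561-162866610. Controls were at 109, 97.1, 130, 80.8 and 50.4 CPM, and irradiated pools at 90.6, 119, 81.7, 40.1 and 32.4 CPM. In both treatments the 32-week pool was the lowest. The irradiated pools of 12 and 32 weeks were below all 5 controls, and the other 3 lay within the control range. At 1 week the irradiated pool was 1.22-fold higher, and at the other times it was lower, by 1.20-fold at 24 hours, 1.59-fold at 4 weeks, 2.01-fold at 12 weeks and 1.55-fold at 32 weeks. Fmo1 was the only 1 of the 10 genes lower in the irradiated pool at 4 of 5 times. The 10 fibroblast markers summed to 2085 CPM in the control and 2080 CPM in the irradiated pool at 12 weeks, and to 1935 and 843 CPM at 32 weeks. The 8 endothelial markers summed to 686 and 460 CPM at 12 weeks and to 490 and 630 CPM at 32 weeks. The 10 alveolar type 2 markers summed to 35537 and 7988 CPM at 12 weeks and to 24427 and 9148 CPM at 32 weeks, with 0 of 10 higher in the irradiated pool at both times. Over the 10 pools the correlation of Fmo1 with the mean log2 level was 0.85 for endothelial, 0.81 for alveolar type 2 and 0.79 for fibroblast markers, and their part in the result was not tested.

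Gsta3 and Gstm1 are glutathione S-transferases of the alpha and mu classes, which conjugate glutathione to epoxides and other electrophiles. Gsta3 lies on the plus strand at chr1:21240589-21265661 and was at 44.1, 32.1, 57.1, 40.3 and 37.5 CPM in controls and 52.6, 57.7, 49.5, 41.0 and 65.7 CPM in irradiated pools. Only the irradiated pools of 1 and 32 weeks were above all controls, 1.79-fold and 1.75-fold against their matched controls. Gsta3 differed little between treatments at the other times, with ratios of 1.19 at 24 hours, 0.867 at 4 weeks and 1.02 at 12 weeks. The sign at 4 weeks flipped on the authors' FPKM scale, where the log2 fold was 0.01. Gstm1 lies on the minus strand at chr3:108012255-108017973 and was at 583, 621, 696, 701 and 735 CPM in controls and 658, 740, 725, 455 and 1069 CPM in irradiated pools. The 12-week irradiated pool was below and the 1-week and 32-week pools above all controls. Its matched ratio was 1.13, 1.19 and 1.04 from 24 hours to 4 weeks, 0.649 at 12 weeks and 1.45 at 32 weeks. The nearest transcript to Gstm1, Gstm3, was 89.5% identical over 1054 bases and at most at 1.78 CPM. The nearest to Gsta3, Gm10639, was 76.8% identical over 680 bases and at most at 0.173 CPM.

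Aldh1a1 encodes a cytosolic aldehyde dehydrogenase that makes retinoic acid from retinal. It lies on the plus strand at chr19:20492715-20643465. Controls were at 241, 216, 436, 289 and 294 CPM, and irradiated pools at 214, 292, 477, 338 and 649 CPM. The 24-hour irradiated pool was below all controls, the 4-week and 32-week pools were above them, and the other 2 lay within their range. Its matched ratio was 0.887 at 24 hours, 1.35 at 1 week, 1.09 at 4 weeks, 1.17 at 12 weeks and 2.21 at 32 weeks. Aldh1a7 was 89.0% identical over 2039 bases and lay between 17.3 and 43.1 CPM, so a part of the fragments of these 2 genes could have been exchanged in counting.

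At 32 weeks 9 of the 10 genes were above all 5 controls, against 25.5% of all genes tested, and Fmo1 was below them, as were 23.3%. Their median matched log2 fold at that time was 0.76, with 0.02 over all genes tested. At 24 hours the count above all controls was 4 (22.1% of all genes), at 1 week 6 (22.6%), at 4 weeks 6 (19.1%) and at 12 weeks 4 (21.9%). Below all controls were Aldh1a1 at 24 hours (21.2%), 0 genes at 1 week (18.8%) and 4 weeks (16.8%), and Gstm1 and Fmo1 at 12 weeks (21.5%). At least 2-fold above the matched control were Ephx1, Ces2e and Cyp1b1 at 24 hours (3.34%), Ephx1 and Ces2e at 1 week (6.5%), Ces2e at 4 weeks (3.65%), Cyp1b1 at 12 weeks (5.25%), and Ephx2, Ces2e, Cyp2b10 and Aldh1a1 at 32 weeks (8.32%). Fmo1 at 12 weeks was at least 2-fold lower (6.23%), and 0 of the 10 were so at 24 hours (4.64%), 1 week (3.46%), 4 weeks (3.39%) and 32 weeks (8.01%). Because the genes were chosen on this contrast, nothing is read from these counts. The 5 times share 1 set of controls in the counts against all controls.

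Markers of several cell types differed in the 32-week pair as well. The 10 ciliated cell markers summed to 430 CPM in the 32-week control and 914 CPM in the irradiated pool, with 10 of 10 higher, and over all times to 252 to 543 CPM in controls and 157 to 914 CPM in irradiated pools. The 9 club cell markers summed to 11456 and 17507 CPM at 32 weeks, with 7 of 9 higher, and over all times to 3912 to 13006 CPM in controls and 3547 to 17507 CPM in irradiated pools. In the same pair the 8 alveolar macrophage markers summed to 7714 and 21982 CPM, with 6 of 8 higher, and the 5 red cell markers to 7504 and 22230 CPM, with 5 of 5 higher. Among the sums lower in the irradiated pool there were those of 10 alveolar type 2 markers, 24427 and 9148 CPM, and 10 fibroblast markers, 1935 and 843 CPM. The sum of the 7 T cell markers was lower too, 874 and 398 CPM, and 0 genes were higher in each of these lists. At 12 weeks, where Ces1d, Cyp2b10 and Gstm1 were lower in the irradiated pool, the club cell sum was 8059 CPM in the control and 3786 CPM in the irradiated pool. The sum of 10 alveolar type 2 markers there was 35537 and 7988 CPM. That of the 10 ciliated cell markers was 397 and 301 CPM, with 3 of 10 higher, while Aldh1a1 was higher in that irradiated pool, 289 and 338 CPM. Over the 10 pools Aldh1a1 and Cyp2b10 correlated with the mean log2 level of the ciliated cell markers at 0.93 and 0.91, while Ephx1 and Ces2e did so at -0.26 and -0.39. With the fibroblast markers, Aldh1a1 and Cyp2b10 correlated at -0.77 and -0.83, and Ephx1 and Ces2e at 0.12 and 0.08. The B cell sum at 24 hours was 951 CPM in the control and 462 CPM in the irradiated pool. At 1 week it was 1276 and 656 CPM. The T cell sum was 448 and 230 CPM, then 555 and 294 CPM. Later the order varied (B cell 999 and 1078 CPM at 4 weeks, T cell 489 and 595 CPM at 12 weeks). Ephx1 and Ces2e correlated most strongly with these lists, at -0.78 and -0.69 for B cell and -0.73 and -0.86 for T cell markers. These points share time, treatment and library, and the part of the markers in the results was not tested.

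**Figure D3:**
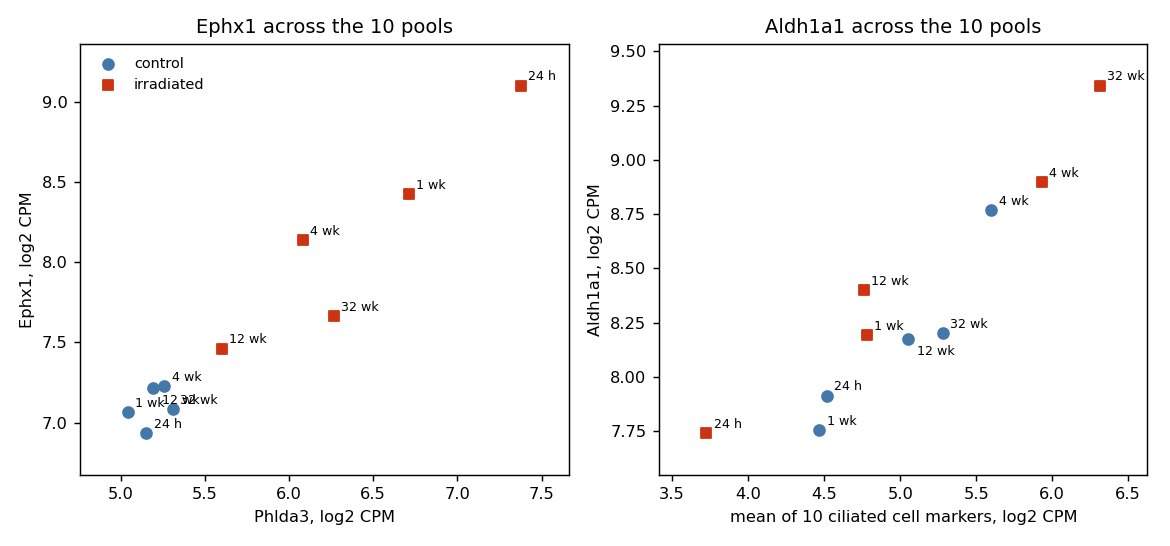
Left, log2 CPM of Ephx1 against that of the p53 target Phlda3; right, log2 CPM of Aldh1a1 against the mean log2 CPM of 10 ciliated cell markers. Each point is 1 of 10 pools, labelled by time, in blue for controls and red for irradiated pools. On the left the controls sit together at the low end and the irradiated pools spread upward (r = 0.97), while on the right pools of both treatments lie along 1 band (r = 0.93). Both genes had been chosen on the difference between treatments. Phlda3 was the nearest to Ephx1 of 12368 genes, and the ciliated list had the highest correlation with Aldh1a1 of the marker lists. Both panels are therefore only a description.

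Across pools the 10 genes did not share 1 pattern. Ephx1 and Ces2e correlated at 0.93 over the 10 pools, Ephx2 and Ces2e at 0.73 and Ephx1 and Ephx2 at 0.62. Other high correlations included Cyp2b10 with Aldh1a1, at 0.91, and Ces1d with Gsta3 and Cyp2b10, at 0.80 and 0.79. Gstm1 correlated with Ces1d at 0.74 and with Cyp2b10 at 0.71. Gsta3 was about as close to Ephx1, at 0.53, as to Cyp2b10, at 0.52, so the genes did not split cleanly. Among 12368 genes with at least 50 counts on average, the 3 nearest to Ephx1 were Phlda3 at 0.97, Cdkn1a at 0.95 and Ccng1 at 0.94. For Ces2e they were Exoc4 at 0.98, Ccng1 at 0.98 and Ephx1 at 0.93. Among those nearest to Ephx2 were Tgfbr2 at 0.96 and Cpt2 at 0.95, and Cyp1b1 was nearest to Mtmr9, Heatr5b and Wdr81, at 0.91. Nearest to Cyp2b10 were Atp2c2, Bbox1 and Spata18, at 0.97 to 0.98, and to Aldh1a1 Dynll1, Wdr19 and Rabl2, at 0.97 to 0.98. Ces1d was nearest to Nme7, Prdx6 and Muc20, Gsta3 to Crim1, Mettl7a1 and Fam171a1, Gstm1 to Chpt1, Depp1 and Aig1, and Fmo1 to Pde9a, Ecscr and Tmem100. These correlations describe 10 pools that share times and treatment and carry no test.

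Per length, the control levels spanned a wide range on the authors' FPKM scale (fragments scaled by transcript length and library total). Gstm1 was the highest at 305 ± 20.6 FPKM (mean and SD, n = 5 controls), followed by Ces1d at 106 ± 24.7, Aldh1a1 at 72.5 ± 19.0 and Ephx1 at 61.4 ± 6.52. Fmo1 at 24.5 ± 8.12, Cyp2b10 at 23.5 ± 8.19 and Gsta3 at 21.9 ± 4.77 formed a middle group. Ephx2 at 0.960 ± 0.206, Cyp1b1 at 0.720 ± 0.209 and Ces2e at 0.585 ± 0.338 FPKM were the lowest. Between neighbours in this order the control ranges did not overlap for Gstm1 over Ces1d, Ephx1 over Fmo1 and Gsta3 over Ephx2, and overlapped for the other 6 pairs. At 24 hours Ces2e reached 8.77 FPKM and Ephx1 259 FPKM in the irradiated pool.

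The change with time in unirradiated lung was tested across the 5 controls as a slope on log2 days, the only comparison of the 10 genes that holds no irradiated pool, although these controls also entered the differences on which the genes were chosen. None of the 10 passed (edgeR quasi-likelihood F test with Benjamini-Hochberg adjustment over 15625 genes), and 1 gene did in all, 0.0064%. Cyp2b10 had the steepest slope, 0.17 ± 0.04 log2 units per doubling of time (SE), with an adjusted p of 0.545 in edgeR. The slope of Fmo1 was -0.11 ± 0.05, with an edgeR adjusted p of 0.871. For the other 8 the edgeR adjusted p was 0.906 or more. At an unadjusted p under 0.05 in edgeR, only Cyp2b10 of the 10 was found, against 5.9% of all genes, so nothing is read from this count.

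Another 117 genes of these enzyme families, of conjugation and of xenobiotic sensing were examined, of which 82 passed the filter. Over the 5 times together none passed in edgeR, as none of the 15625 genes did (0.0% higher and 0.0% lower), and 11 of the 82 (13.4%) had an unadjusted p under 0.05, against 11.1% of all genes. At 24 hours and 1, 4 and 12 weeks, with each irradiated pool set against the same 5 controls, 0 of 82 passed, against 0.608%, 0.0128%, 0.0064% and 0.0% of all genes higher and 0.442%, 0.0%, 0.0448% and 0.0% lower. Unadjusted p under 0.05 were 13, 8, 13 and 12 of the 82 at these times (15.9%, 9.76%, 15.9% and 14.6%), against 12.0%, 9.52%, 7.17% and 10.7% of all genes, and DESeq2 called 1, 1, 3 and 1. At 32 weeks 2 rose and 1 fell, while 0.576% of all genes rose and 0.243% fell. There 32 of the 82 (39.0%) had an unadjusted p under 0.05, against 16.3% of all genes. DESeq2 called 10 higher and 4 lower at 32 weeks, and edgeR called 0 without the 1-week control. The median matched log2 fold of the 82 was 0.15, 0.16, 0.08, -0.12 and 0.48 in time order, and 48 of them (58.5%) were above all 5 controls at 32 weeks, against 25.5% of all genes.

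**Figure D4:**
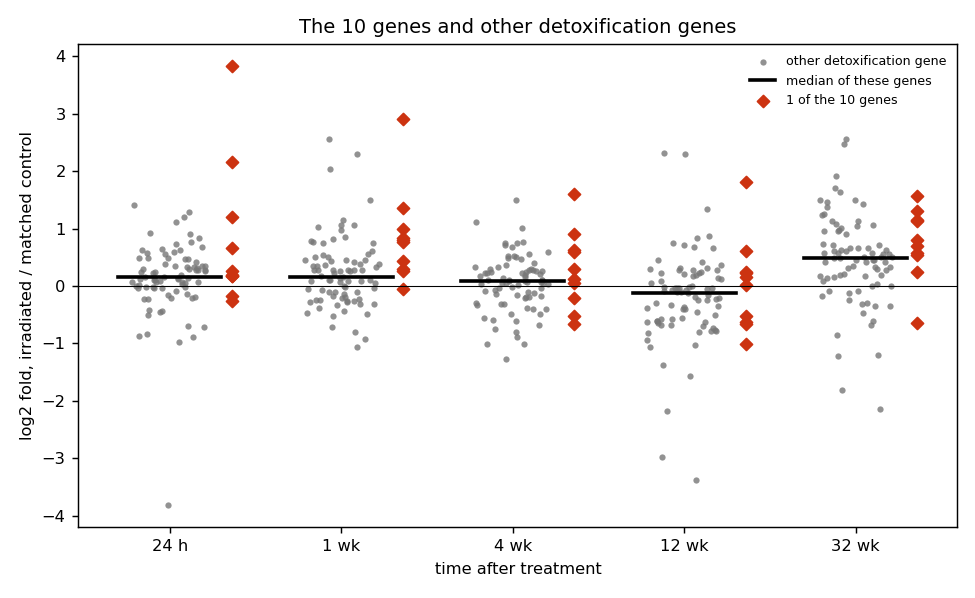
Log2 fold of the irradiated pool over the matched control at each time for the 82 other detoxification genes tested (grey points, spread sideways at random) with their median (black line), and for the 10 genes (red diamonds). Each value compares 1 pool with 1 pool. The grey median lies between -0.12 and 0.16 up to 12 weeks and at 0.48 at 32 weeks.

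Aldh3b1, which oxidises aldehydes from lipid peroxidation, rose to 449 CPM in the 32-week irradiated pool against 189 ± 17.0 CPM in controls (SD, n = 5), a log2 difference of 1.26 ± 0.16 (SE) with an adjusted p of 0.0157 in edgeR. Cyp2s1, a cytochrome P450 of epithelia, rose to 613 CPM against 190 ± 54.9, a log2 difference of 1.70 ± 0.29 with an edgeR adjusted p of 0.039. Adh1, the class I alcohol dehydrogenase that oxidises ethanol and retinol, fell to 63.2 CPM against 164 ± 10.4, a log2 difference of -1.37 ± 0.18 with an edgeR adjusted p of 0.0161. Against the matched control their ratios were 2.61, 3.12 and 0.433. Without the 1-week control the adjusted p of Aldh3b1 and that of Adh1 became 0.0643 in edgeR, and over the 5 fits that each leave out 1 control it ran from 0.00914 for Aldh3b1 and from 0.0187 for Adh1 up to that value. The call of Cyp2s1 was lost without the control of 24 hours, 1, 12 or 32 weeks, with an edgeR adjusted p of 0.0632, 0.0883, 0.0602 and 0.0567, and it was 0.00914 without that of 4 weeks. These tests assume that the lone irradiated pool varies like the controls, and they do not separate irradiation from the age of that pool.

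By family, the glutathione S-transferases other than Gsta3 and Gstm1 had 0 of 20 past the test at any time, and 13 of 20 above all controls at 32 weeks (25.5% of all genes) with a median matched log2 fold of 0.52. At 12 weeks 10 of these 20 were below all controls (21.5% of all genes), with a median of -0.41. Of 15 other cytochromes P450 and partners 1, Cyp2s1, passed at 32 weeks, and their median was -0.58 at 12 weeks and 0.48 at 32 weeks. The 20 other aldehyde and alcohol dehydrogenases included Aldh3b1 and Adh1, and 17 of 20 were higher than the matched control at 32 weeks, as were 51.8% of all genes. Of the 5 other carboxylesterases none passed, and their median was 0.49 at 24 hours and -0.25 at 32 weeks. The 10 conjugating enzymes had a median of 0.77 and the 8 xenobiotic sensors and partners 0.26 at 32 weeks, again with 0 past the test. The 1 other epoxide hydrolase tested and the 3 other flavin monooxygenases had none either.

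Among other detoxification genes with the smallest p that did not pass, Ces1e was at 3.45 ± 0.410 CPM in controls and 6.47 ± 1.48 CPM in irradiated pools (SD, n = 5 each), higher in 5 of 5 pairs, with an edgeR adjusted p of 0.268 over the 5 times. Gstt2 was lower in 5 of 5 pairs at 17.1 ± 1.92 and 13.9 ± 3.57 CPM, with an edgeR adjusted p of 0.518. Adh1 over the 5 times had an edgeR adjusted p of 0.505. At single times the smallest p belonged to Gstt3 and Aldh1l1 at 24 hours (57.4 and 40.7 CPM) and at 1 week (59.7 and 46.9 CPM), against control means of 37.1 ± 3.14 and 16.6 ± 5.82 CPM. On the lower side they belonged to Cyp2s1 and Cyp2a5 at 24 hours (91.3 and 25.1 CPM, controls 190 ± 54.9 and 54.5 ± 20.2 CPM) and to Gsto1 and Mgst2 at 1 week (143 and 5.61 CPM, controls 198 ± 8.67 and 12.0 ± 3.77 CPM). At 4 weeks they were Aldh3b1 (324 CPM) and Cyp2s1 (437 CPM) on the higher side and Akr1c13 (15.2 CPM, controls 29.0 ± 2.49 CPM) and Adh1 (112 CPM) on the lower. At 12 weeks they were Aldh1b1 (14.6 CPM, controls 7.60 ± 0.892 CPM) and Ugt1a7c (102 CPM, controls 67.2 ± 11.8 CPM), and on the lower side Cyp3a13 (0.619 CPM, controls 2.81 ± 0.404 CPM) and Ces2b (0.155 CPM, controls 1.89 ± 0.813 CPM). All of these single-time values had an edgeR adjusted p of 0.201 or more.

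In the controls alone 0 of the 82 passed for the slope over time in edgeR, with 5 (6.1%) at an unadjusted p under 0.05, against 5.9% of all genes, and 2 calls in DESeq2. Cyp1a1, the cytochrome P450 most responsive to the aryl hydrocarbon receptor, had a slope of -0.46 ± 0.06 log2 units per doubling of time (SE) with an edgeR adjusted p of 0.246. Its 24-hour control held 44.7 CPM and the other controls 2.87 to 11.8 CPM. Cyp2a5 and Cyp2f2, the latter a club cell enzyme that activates naphthalene, had slopes of 0.18 ± 0.03 and 0.14 ± 0.06, and Sult1a1, a sulphotransferase, one of -0.15 ± 0.04, with edgeR adjusted p of 0.304, 0.79 and 0.545.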

How the data were processed

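RNA sequencing libraries of 10 pools of mouse whole-lung cell suspension, 5 controls and 5 irradiated, were analysed, with preparation by Clontech ultralow and Illumina NexteraXT kits per the labels' protocols. This preparation keeps no strand information, and overlapping genes on opposite strands can therefore not be told apart. The authors deposited expected counts and FPKM values per gene. Trimmomatic 0.32, STAR 2.4.2a, Cufflinks 2.0.2, Cuffdiff and build GRCm38.p4 were named per the submitters' processing notes, while which tool did what, and with which annotation, is not given in the sources used here. Deposited expected counts had been scaled: low values lay at multiples of a step between 0.576 and 1.38, and between 76.4% and 81.3% of values per library fell within 0.05 of a whole multiple. Deposited totals were 9983710 to 13509769, and division by the step gave the fragments quoted.

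Of 45786 identifiers, 45223 matched GENCODE M21. Expected counts were rounded to whole numbers, scaled by TMM (factors 0.934 to 1.09) and filtered by edgeR's filterByExpr at a minimum count of 10. Quasi-likelihood F tests, 2-sided (edgeR 4.0.16, R 4.3.3, common dispersion 0.061) used Benjamini-Hochberg adjustment over 15625 genes and a threshold of 0.05. The fit over the 5 times had time as a block (4 residual degrees of freedom), that of each irradiated pool against 5 controls had 4, and that of log2 days in controls had 3. The labels give 1 library per pool, so p-values reflect the spread between pools, technical and biological together. Matched folds used a prior count of 2. Alternatives were DESeq2 1.42.0, its size factors, no filter, unscaled fragments, total count scaling, a prior count of 0.5, FPKM with pseudocounts of 1 and 0.1, no time block and leaving out pools. The code was tested on simulated data.

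The 10 genes, the lists of other genes and the tests were chosen with earlier results of these data known. Named besides the 10 genes were list members passing a test, at most 5 per direction and comparison, or otherwise the 2 smallest p per direction; the 3 genes most correlated with each of the 10 over the 10 pools; and 4 p53 targets. Nearest paralogues were taken from alignment of GENCODE M21 transcripts, since no protein table was used here. RefSeq start windows (GRCm38.p6) were matched for 7 of the 10 genes. Of the genes this rule names, 2 are not reported here.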

Additional observations from a re-analysis of the deposited data

Results flagged for a closer look

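Among 29 genes examined from the detoxification lists, each with 5 control and 5 irradiated pools, 8 of 58 groups had a pool far from its 4 companions, with a gap above 0.71 of the whole range of the group. Chance gives about 1 in 20 groups only where the 5 values are independent draws from 1 normal distribution and the genes were not chosen on them. Here each group spanned 5 different times, and all genes shared the same pools. The genes were also chosen with these data known, some of them for a small p. The count can therefore not be compared with that rate, and nothing is read from it. For Ces2e the 12-week control (5.34 CPM) was apart from the others (1.82 to 2.47 CPM), with a gap of 0.814 of the range. For Cyp1b1 the 12-week control (2.97 CPM) was below the others (6.10 to 6.88 CPM), with a gap of 0.802. This control is the shallowest library, and the part of depth in these values was not tested. For Gstt3 the 12-week control (42.5 CPM) was above the others (35.0 to 37.2 CPM), with a gap of 0.718. For Adh1 the 32-week control (146 CPM) was below the others (165 to 171 CPM), with a gap of 0.751. For Aldh1b1 the 1-week control (6.07 CPM) was below the others (7.75 to 8.42 CPM), with a gap of 0.714. For Cyp1a1 the 24-hour control (44.7 CPM) was above the others (2.87 to 11.8 CPM), with a gap of 0.787. Among irradiated pools, Ces1e at 4 weeks (9.04 CPM, others 5.56 to 6.40 CPM) had a gap of 0.76 and Cyp2a5 at 32 weeks (170 CPM, others 25.1 to 66.0 CPM) one of 0.717.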

How the results depend on the processing

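Counts of calls depended on the tool. Of the other detoxification genes, DESeq2 called 1 at 24 hours, 1 at 1 week, 3 at 4 weeks, 1 at 12 weeks, 14 at 32 weeks and 2 for time in controls, and without a filter edgeR called 5 at 32 weeks and 1 for time in controls. Leaving out a control gave 0 to 4 at 32 weeks, with 0 without the 1-week control, and 0 to 1 for time in controls. Over all genes DESeq2 called 253, 558, 242, 93, 231, 868 and 53 (over the 5 times, at the 5 times in order, and for time in controls), and edgeR without a filter 1, 250, 24, 31, 43, 336 and 10, against 0, 164, 2, 8, 0, 128 and 1. Leaving out a control moved the count of all genes at 24 hours to as few as 64 (without the 1-week control) and at 32 weeks to 8 (without the 1-week control) up to 312 (without the 4-week control). The cause was not tested. With the replicate block of time or without it, 0 genes passed over the 5 times.

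Of 250 recomputed matched folds of the 10 genes, 229 moved by less than the spread between controls and 21 by more, 19 of them on the FPKM scale, such as Ces2e at 24 hours (2.66 with a pseudocount of 1, in place of 3.83). FPKM moved the median log2 fold of all genes to as much as 0.32, at 32 weeks, and total count scaling to -0.15 there. The slope of Ces2e in controls, 0.06, ran from -0.053 (without the 12-week control) to 0.14 when a control was left out, and that of Gsta3, -0.00, from -0.023 to 0.022. With 1 pool per time and treatment, depth limits most the genes under 100 fragments in a pool: Ces2e, Ephx2 and Cyp1b1.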
